A study of Mus musculus with 2 samples.

Results

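The 10 genes described here encode 7 matrix metalloproteinases (Mmp2, Mmp3, Mmp9, Mmp10, Mmp12, Mmp13 and Mmp14) and 3 tissue inhibitors of metalloproteinases (Timp1, Timp2 and Timp3). They were chosen by symbol, and all 10 were found among the 31053 genes measured. Dissociated subcutaneous tumours of MC38, a colon carcinoma line of the mouse, were profiled cell by cell with a droplet method that reads the 3' ends of transcripts. The control group is 1 library from control tumours and the UBD group is 1 library from tumours overexpressing UBD (FAT10), a ubiquitin-like modifier that directs proteins to the proteasome. No sort of cells is described, so malignant and host cells entered both libraries together. The sources used here do not give the number or age of the animals, or the promoter and species of the UBD construct. With 1 library per group there is no replicate check and no test, and every difference below is between 2 libraries.

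Matrix metalloproteinases are zinc-dependent endopeptidases that cut collagens, elastin, laminins and other matrix proteins, and also release or inactivate cytokines and growth factors. Most are secreted as inactive proenzymes and activated by cleavage of the propeptide, while a membrane type such as Mmp14 stays at the cell surface. TIMPs bind the active site and block it, and Timp2 also takes part in the activation of the Mmp2 proenzyme by Mmp14. In tumours these genes are typically divided between the malignant cells, fibroblasts and myeloid cells. Transcript counts say nothing about activation or enzyme activity.

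Cells were assigned to a class by the UMIs (unique molecular identifiers, 1 per captured transcript) of 1 or 2 markers. These were Cdkn2a for tumour cells, Dcn for fibroblasts, C1qa for macrophages, S100a8 for neutrophils, Acp5 with Ctsk for osteoclast-like cells and Cdh5 for endothelial cells. The control and UBD libraries gave 3981 and 6494 tumour cells, 194 and 219 fibroblast gate cells, 2197 and 1781 macrophages, 139 and 18 neutrophils, 130 and 724 osteoclast-like cells, and 32 and 15 endothelial cells. Cells that passed more than 1 gate, 1371 and 1335, were kept apart as mixed, and most of them carried both Cdkn2a and Dcn. All 6 markers of each host class were detected in that class in both libraries. The sum of 4 Y-linked genes, a sign of host cells here, was 2.47 and 0.49 CPM (UMIs of the gene per 1000000 UMIs of the class) in tumour cells against 103 and 95.4 CPM in macrophages. The fibroblast gate went against its label in part. Its cells with Cdkn2a under 2 per 10000 UMIs (83 control and 127 UBD) had 71.6 and 78.7 CPM of Y-linked transcripts, and the rest (111 and 92) had 4.78 and 6.77 CPM. The gate is therefore called the Dcn gate below, and the values its differences rest on are given with and without the cells of higher Cdkn2a.

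Median depth was 17026 and 17393.5 UMIs in tumour cells and 4081 and 5745 UMIs in macrophages (control, then UBD, as in every pair of values below). Gm42418, a gene whose counts follow ribosomal RNA carry-over, was 3123 and 998 CPM in tumour cells and 10871 and 2835 CPM in macrophages, and values without its UMIs are among the alternatives. Mouse Ubd gave 111 and 204 UMIs over all kept cells, and this tag does not check a construct without the end of the mouse transcript. T cells, 505 and 513 of them, served as the background class, since free RNA in droplets gives every class a low count of abundant transcripts. Their levels were 4.27 and 29.8 CPM for Mmp9, 39.4 and 61.4 CPM for Timp1, 46.5 and 87.0 CPM for Timp2, 13.3 and 14.9 CPM for Timp3, 9.96 and 12.5 CPM for Mmp2, and 9.01 and 18.5 CPM for Mmp14. Mmp3, Mmp12 and Mmp13 were at 0 to 3.58 CPM in T cells, from at most 6 UMIs in a library, and Mmp10 had 0 UMIs there.

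The members divided between the classes. Mmp9 was a transcript of osteoclast-like cells, Mmp12 was highest in macrophages, as was Mmp13 in the control library, and Mmp3 was highest in Dcn gate cells. Mmp2, Timp1 and Timp2 were shared by Dcn gate and tumour cells, Timp2 also by macrophages and osteoclast-like cells. Timp3 was highest in endothelial and Dcn gate cells, and Mmp14 was at 67.6 CPM or more in every gated class except neutrophils, and at 9.01 and 18.5 CPM in T cells. Mmp10 was hardly measured, at 10 UMIs in 3 control tumour cells and 3 UMIs in 2 UBD tumour cells.

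**Figure D1:**
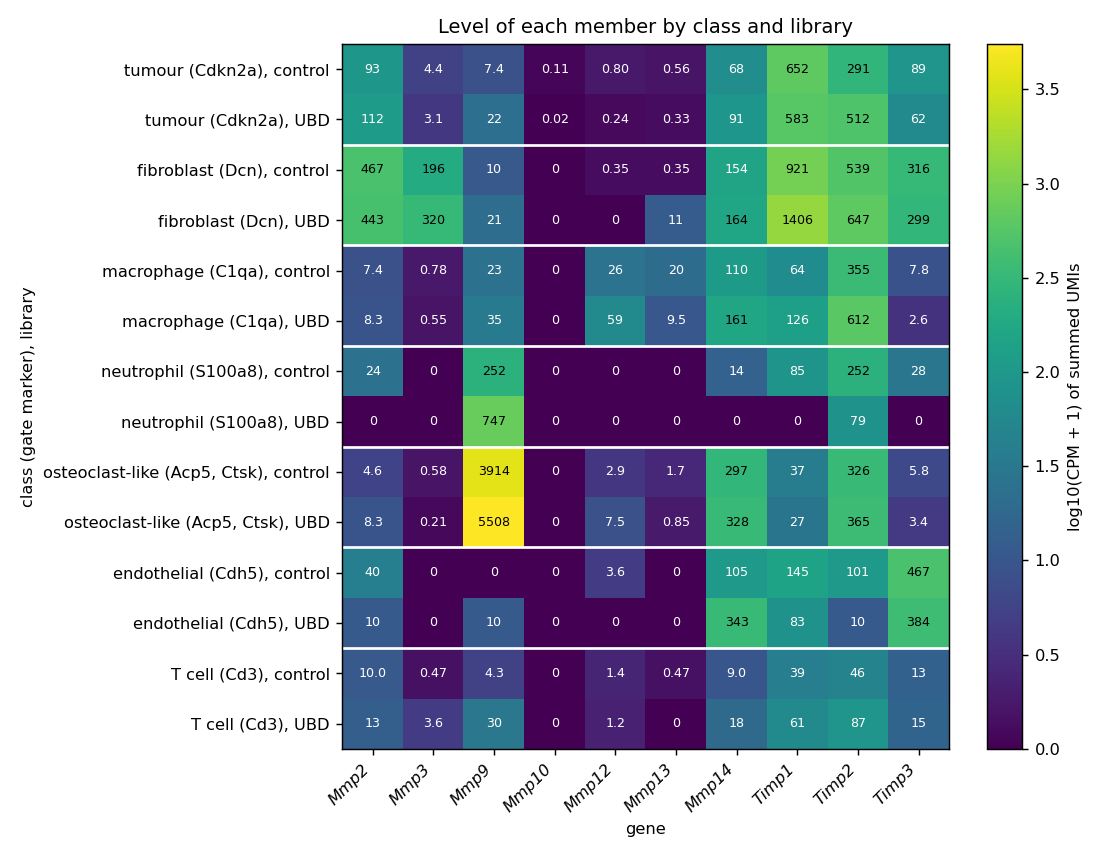
Heat map of each member (columns) in the 6 gated classes and T cells (rows, control above UBD; the Dcn gate is labelled fibroblast), as log10(CPM + 1) of summed UMIs, with the CPM printed in each cell. The brightest cells are Mmp9 in osteoclast-like cells, 3914 and 5508 CPM, and Timp1 in Dcn gate cells, 921 and 1406 CPM.

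The metalloproteinase genes Mmp13, Mmp12, Mmp3 and Mmp10 lie in 1 cluster on chromosome 9 (GRCm38). With Mmp1b, Mmp8, Mmp27, Mmp20 and Mmp7, it holds 9 protein-coding Mmp genes among those measured here. Mmp13 spans 7272514 to 7283331, Mmp12 7344381 to 7369499, Mmp3 7445822 to 7455975 and Mmp10 7502352 to 7510240, all on the plus strand and together 237.7 kb. Elsewhere, Mmp2 is on chromosome 8 (92827291 to 92853420), Mmp9 on chromosome 2 (164940780 to 164955850), Mmp14 on chromosome 14 (54431612 to 54445364), Timp1 on chromosome X (20870166 to 20874735), Timp2 on chromosome 11 (118301069 to 118355740, minus strand) and Timp3 on chromosome 10 (86300372 to 86349506). The promoters of the chromosome 9 members are shown because the genes are neighbours and yet were counted in different classes. RefSeq promoters (GRCm38.p6, 250 bases before to 50 after a start) were found for 8 of the 10 members, 9 promoters in all. Mmp2 and Mmp9 had none and were not searched. The AP-1 motif TGANTCA, which reads the same on both strands, occurred in 4 of these 9 against 7.81% of all 32851 promoters. In the 120 bases before the start it occurred in the same 4, against 3.41% of all. They are the promoters of Mmp13 (chr9:7272394-7272513), of the second RefSeq start of Mmp12 (chr9:7347254-7347373), of Mmp3 (chr9:7445702-7445821) and of Mmp10 (chr9:7502222-7502341), each on the plus strand and printed 5′ to 3′ with the motif in capitals. The promoter of the first RefSeq start of Mmp12, which lies nearer to the annotated start of the gene, has no match.
Mmp13: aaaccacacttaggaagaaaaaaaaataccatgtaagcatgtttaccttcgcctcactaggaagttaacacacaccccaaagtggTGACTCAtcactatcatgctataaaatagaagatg
Mmp12: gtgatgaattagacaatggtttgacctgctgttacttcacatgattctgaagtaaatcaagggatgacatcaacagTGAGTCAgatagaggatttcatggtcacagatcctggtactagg
Mmp3: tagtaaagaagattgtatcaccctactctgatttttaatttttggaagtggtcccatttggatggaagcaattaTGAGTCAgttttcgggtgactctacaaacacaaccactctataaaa
Mmp10: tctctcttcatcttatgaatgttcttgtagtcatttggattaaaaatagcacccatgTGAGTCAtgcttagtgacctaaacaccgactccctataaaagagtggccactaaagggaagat
The first base of the motif was 35, 44, 46 and 63 bases before the start, in that order. A match of letters is a description of these windows and not a measured site. Macrophages held 205 and 104 UMIs of Mmp13 and 266 and 644 of Mmp12 but 8 and 6 of Mmp3, while the Dcn gate held 567 and 807 UMIs of Mmp3 but 1 and 0 of Mmp12. Of the cluster genes that are not members, Mmp8 had at most 36 UMIs and Mmp27 at most 12 in any of the 4 compared classes of a library. Mmp1b, whose annotation overlaps the end of Mmp12 on the other strand, had 0 there, as had Mmp20 and Mmp7.

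Mmp9, gelatinase B, cuts denatured collagen and basement membrane collagen and is a known product of osteoclasts and neutrophils. In osteoclast-like cells its level was 3914 CPM in the control (95% Poisson interval 3821 to 4008) and 5508 CPM in the UBD library (5461 to 5556). It was detected in 94.6% and 94.8% of these cells, and 366 Mmp9 UMIs were counted in the UBD cell with the most. The UBD level was 1.41-fold higher (counting interval 1.37 to 1.44), under the 1.5-fold used here to call a difference. That call depended on the processing: the log2 ratio, 0.49 here, was from 0.12 to 1.05 under the alternatives, the highest past 1.5-fold. These cells were 0.94% of control cells and 5.54% of UBD cells but held 72.7% and 89.4% of all Mmp9 UMIs. Over all kept cells Mmp9 was 56.3 and 306 CPM, so in the libraries as a whole the difference was far larger than within the class that carries it. Neutrophils, with 139 and 18 cells, had 252 CPM (189 to 329) and 747 CPM (449 to 1166) of Mmp9, from 53 and 19 UMIs and with 0 Ctsk UMIs. Mmp8, the neutrophil collagenase, had 7 and 1 UMIs in them.

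In tumour cells Mmp9 was 7.39 CPM (6.83 to 7.97) and 22.0 CPM (21.2 to 22.9), or 2.99 times as high in the UBD library (2.74 to 3.25). T cells of the same libraries, which should lack it, had 4.27 CPM (1.95 to 8.11) and 29.8 CPM (22.1 to 39.3). Tumour Mmp9 was thus within the T cell interval in the control and just below its lower end in the UBD library, and the part of free RNA in it was not tested. The osteoclast genes were higher in the same tumour cells, with Ctsk at 8.23 and 37.0 CPM and Acp5 at 3.02 and 13.2 CPM. Per Ctsk UMI, tumour cells had 0.897 and 0.596 Mmp9 UMIs, T cells 1.00 and 0.893, and osteoclast-like cells 0.527 and 0.608. In tumour cells without any Acp5 or Ctsk UMI, 3346 and 3416 cells, Mmp9 was 6.54 and 21.0 CPM. Of tumour cells 11.8% and 27.0% had a Mmp9 UMI, or 1.29% and 2.35% when cells were thinned to 1000 UMIs each (20 and 14 were shallower and left out). The T cell shares were 1.58% and 8.97% at median depths of 3138 and 2466 UMIs, and 0.203% and 3.82% after thinning (12 and 15 left out).

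**Figure D2:**
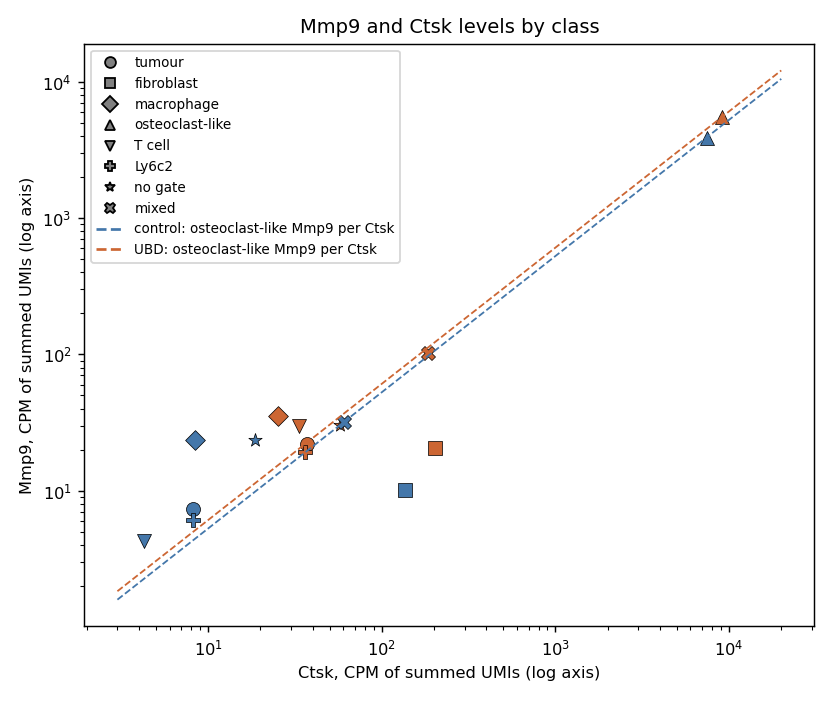
Mmp9 against Ctsk, both in CPM of summed UMIs on log axes, for 8 classes (symbols) in the control (blue) and UBD (orange) library, with endothelial cells and neutrophils left out; dashed lines mark the Mmp9 per Ctsk ratio of osteoclast-like cells, 0.527 and 0.608. Tumour and mixed cells lie nearer to the lines than macrophages, which lie above them, and Dcn gate cells, which lie below.

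Macrophages had 23.5 CPM (20.6 to 26.6) and 35.2 CPM (31.7 to 38.9) of Mmp9, above T cells in the control library and with overlapping intervals in the UBD library. The log2 ratio, 0.58, lay just under the limit. They had more Mmp9 per Ctsk UMI than osteoclast-like cells, 2.79 and 1.39, and those without any Acp5 or Ctsk UMI (1718 and 884) had 25.2 and 37.7 CPM. The control Mmp9 was concentrated in macrophages with at least 2 UMIs of Arg1 (arginase 1), at 73.9 and 50.8 CPM, against 8.87 and 18.0 CPM in those with none. In Dcn gate cells Mmp9 was 10.0 and 20.6 CPM, from 29 and 52 UMIs, and no higher than in T cells in the UBD library. Ctsk in this gate was 136 and 202 CPM.

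Mmp2, gelatinase A, a collagenolytic enzyme typical of mesenchymal cells, was highest in Dcn gate cells, at 467 CPM (443 to 493) and 443 CPM (417 to 469). The gate as a whole concealed a difference. In its cells of low Cdkn2a, which have the Y-linked transcripts of the host, Mmp2 was 1162 CPM (1089 to 1240) and 665 CPM (620 to 713), 0.57-fold in the UBD library (0.52 to 0.63). In those of higher Cdkn2a it was 203 and 243 CPM, nearer to tumour cells, which had 93.4 CPM (91.5 to 95.5) and 112 CPM (111 to 114). Tumour cells held 52.5% and 70.9% of all Mmp2 UMIs, near their 54.7% and 68.3% of the UMIs of all genes. Mixed cells held 33.6% and 18.9% of Mmp2, beside 21.8% and 12.6% of all genes. In macrophages (7.43 and 8.34 CPM) and osteoclast-like cells (8 and 78 UMIs, 4.65 and 8.26 CPM) Mmp2 was at or below the T cell level.

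Mmp14, the membrane-type metalloproteinase that activates the Mmp2 proenzyme, was shared widely. It was 297 CPM (272 to 324) and 328 CPM (317 to 340) in osteoclast-like cells, 154 and 164 CPM in the Dcn gate, 110 CPM (103 to 116) and 161 CPM (154 to 169) in macrophages, and 67.6 and 91.1 CPM in tumour cells. The endothelial value was 105 CPM (70.4 to 151) and 343 CPM (236 to 481), from 29 and 33 UMIs in 32 and 15 cells. The ratio was 1.35 in tumour cells (1.31 to 1.39), 1.47 in macrophages (1.36 to 1.58) and 1.10 in osteoclast-like cells (1.01 to 1.21), none of them past 1.5-fold. Dcn gate cells of low Cdkn2a went the other way, from 291 CPM in the control to 186 CPM in the UBD library, a ratio of 0.64 (0.53 to 0.77). Those cells were therefore lower in the UBD library for Mmp2 and its activator alike, while the tumour cells were slightly higher for both. The 6 fibroblast markers also differed in the cells of low Cdkn2a, with a sum of 6775 and 5386 CPM. The highest of them was at 4283 and 3230 CPM and the lowest at 100 and 151 CPM. How far the ratios of the members follow those of the markers was not tested.

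Mmp3, stromelysin 1, cuts proteoglycans, laminin and fibronectin and activates other proenzymes. Dcn gate cells were 1.40% and 1.68% of cells but held 43.3% and 48.0% of its UMIs. Over the gate it was 196 CPM (180 to 213) and 320 CPM (298 to 343), or 1.63 times as high in the UBD library (1.46 to 1.82). In the cells of low Cdkn2a it was 667 CPM (611 to 726) and 652 CPM (607 to 700), a ratio of 0.98 (0.88 to 1.10), and in those of higher Cdkn2a 17.2 and 21.0 CPM. The ratio over the gate was thus not present within its host-like cells, which made up 83 of 194 control and 127 of 219 UBD cells.

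Tumour cells had 4.35 CPM (3.93 to 4.81) and 3.097 CPM (2.80 to 3.41) of Mmp3, from 392 and 402 UMIs. Few cells carried them: 75 of 3981 and 60 of 6494 had any, and the cells with the most held 94 and 120. Tumour cells with at least 2 Mmp3 UMIs (34 and 19) had 5.85 and 0 CPM of Y-linked transcripts and 1750 and 1985 CPM of Cdkn2a. Their fibroblast markers other than Dcn summed to 254 and 231 CPM, against 101 and 80.2 CPM in tumour cells with none. Part of this Mmp3 lay in the few tumour cells with at least 2 UMIs of the cytokine gene Il11, at 13.9 and 136 CPM. In the control library 16 of 334 such cells held 180 UMIs, and in the UBD library 7 of 67 held 250. Tumour cells without Il11 had 2.65 and 1.21 CPM.

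**Figure D3:**
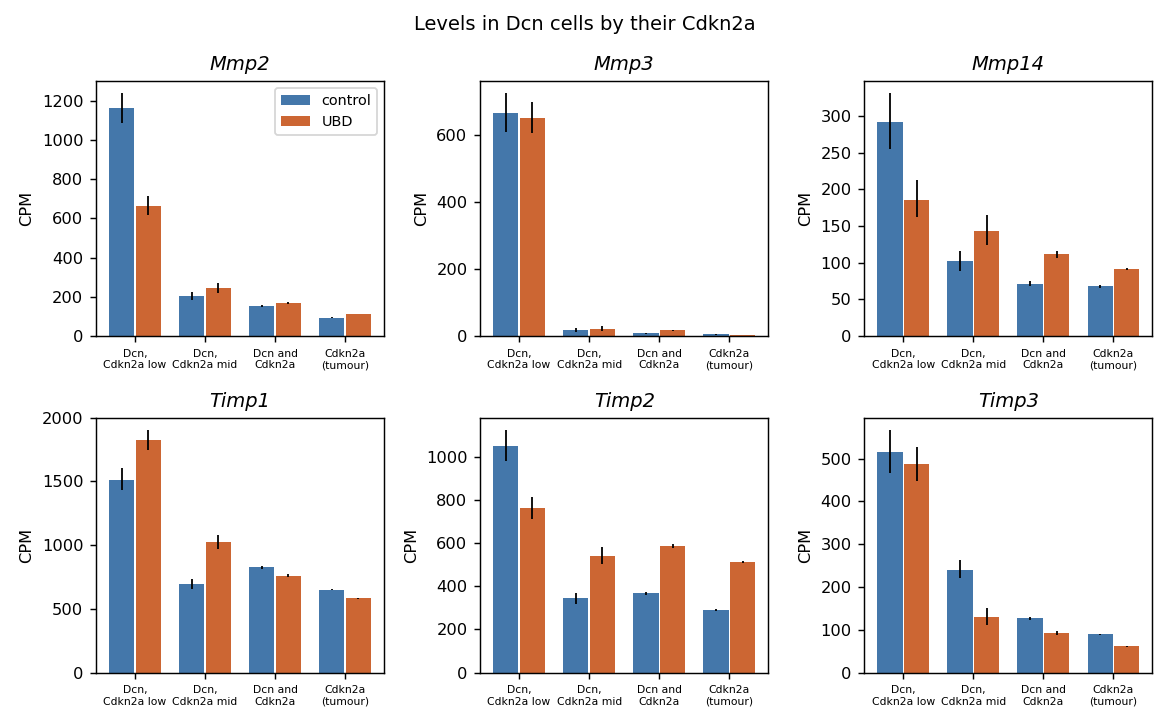
Levels in CPM of 6 members in Dcn gate cells of low Cdkn2a, Dcn gate cells of higher Cdkn2a, cells passing both gates, and tumour cells, in the control (blue) and UBD (orange) library, with 95% Poisson intervals as bars. Mmp3 is near 660 CPM in cells of low Cdkn2a of both libraries and at most 21.0 CPM in the other sets, and Mmp2, Mmp14 and Timp2 are lower in the UBD library in those cells and higher in the other 3 sets.

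Mmp12, macrophage elastase, degrades elastin and is a product of macrophages. In macrophages it was 26.0 CPM (23.0 to 29.3) and 59.0 CPM (54.5 to 63.7), a ratio of 2.27 (1.96 to 2.63). A small minority of the class carried it, 72 of 2197 cells (3.28%) and 156 of 1781 cells (8.76%), or 1.60% and 3.08% after thinning to 1000 UMIs (71 and 30 cells left out). The control cell with the most held 53 of the 266 UMIs and the UBD cell with the most 42 of the 644. T cells had a Mmp12 UMI in 0.594% and 0.390% of cells.

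The carriers were rich in Arg1. Macrophages with at least 2 Mmp12 UMIs (39 and 92) had 1736 and 2650 CPM of Arg1, and those with none 298 and 860 CPM. Of the macrophages, 410 and 863 had at least 2 Arg1 UMIs. Within them Mmp12 was 77.9 and 90.1 CPM, a ratio of 1.16 (0.97 to 1.38), and in macrophages without Arg1 it was 10.3 and 24.1 CPM, or 2.34 times as high in the UBD library (1.70 to 3.23). Among macrophages with at least 2 UMIs of the MHC class II gene H2-Ab1 it was 21.4 and 73.7 CPM, a ratio of 3.45 (2.76 to 4.35), and among those without it 30.4 and 32.6 CPM, 1.07 (0.81 to 1.43). The difference between the libraries was thus smallest in the Arg1 macrophages and in those without H2-Ab1 of the 4 sets compared. Outside macrophages, 406 of 881 control and 222 of 1000 UBD Mmp12 UMIs were in cells that passed no gate, 164 of the control ones in 1 cell. Osteoclast-like cells had 5 and 71 UMIs, 41 of the latter in 1 cell. Tumour cells had 0.80 and 0.24 CPM, at or below T cells (1.42 and 1.19 CPM), and the 6 and 2 tumour cells with at least 2 UMIs had 250 and 313 CPM of Arg1, against 4.93 and 3.28 CPM in tumour cells with none.

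Mmp13, collagenase 3, cuts fibrillar collagens. In macrophages it moved the other way from its neighbour Mmp12, at 20.04 CPM (17.4 to 23.0) and 9.53 CPM (7.79 to 11.5), 2.10-fold lower in the UBD library (1.65 to 2.69). It was detected in 5.05% and 2.86% of macrophages, or 1.60% and 0.457% after thinning. Its level was also higher in Arg1 macrophages, at 41.6 and 13.6 CPM, than in those without, at 11.3 and 3.14 CPM, and it was lower in the UBD library in both. Both genes were thus higher in Arg1 macrophages. In control macrophages thinned to 2000 UMIs (1874 cells), 2.13% had Mmp12, 2.88% had Mmp13 and 0.107% had both, with a Pearson r of 0.02. With each gene in so few cells, a small overlap does not show that different cells carry them. In the Dcn gate Mmp13 had 1 and 28 UMIs. All 28 came from 2 cells of low Cdkn2a, 23 of them from 1, and without that cell 5 remained. In those cells of low Cdkn2a the control had 0 UMIs, which allows up to 3.77 CPM, against 23.5 CPM in the UBD library. Tumour cells had 0.56 and 0.33 CPM from 50 and 43 UMIs, of which the cells with the most held 20 and 18, and T cells had 1 and 0 UMIs.

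Timp1, a secreted inhibitor that binds the Mmp9 proenzyme, was the most abundant member in tumour cells and in the Dcn gate. Tumour cells had 652 CPM (647 to 657) and 583 CPM (579 to 588), a ratio of 0.89. Tumour cells with at least 2 UMIs of Krt18, a keratin, differed from this, with 1034 and 453 CPM, a ratio of 0.44 (0.42 to 0.45), while those without Krt18 had 627 and 617 CPM. The Dcn gate had 921 CPM (886 to 957) and 1406 CPM (1360 to 1453), 1.53-fold higher (1.45 to 1.61), and within its cells of low Cdkn2a 1515 and 1827 CPM, 1.21-fold (1.12 to 1.29). Macrophages had 63.9 CPM (59.1 to 69.0) and 126 CPM (120 to 133), or 1.97 times as high in the UBD library (1.80 to 2.17). Arg1 macrophages had 99.1 and 171 CPM, against 49.9 and 60.4 CPM in those without Arg1, the latter near the T cell levels of 39.4 and 61.4 CPM. Osteoclast-like cells had 37.2 and 27.2 CPM, near T cells in the control and below them in the UBD library.

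Timp2, the inhibitor that also links Mmp14 to the Mmp2 proenzyme, was higher in the UBD library in tumour cells and macrophages. Tumour cells had 291 CPM (287 to 294) and 512 CPM (508 to 516), 1.76-fold higher (1.73 to 1.79). The ratio was above 1 in all 12 overlapping sets of tumour cells, from 1.18 in Krt18 cells to 1.95 in cells with the interferon-induced gene Ifit1. Macrophages had 355 CPM (344 to 367) and 612 CPM (598 to 627), 1.72-fold higher (1.65 to 1.80). The share of tumour cells with a Timp2 UMI after thinning was 23.5% and 40.1%, and of macrophages 22.8% and 37.9%, against 5.88% and 8.63% of T cells. T cell Timp2, at 46.5 and 87.0 CPM, had a ratio of 1.87 (1.44 to 2.44), and the part of background in the other ratios was not tested. Osteoclast-like cells had 326 and 365 CPM, a ratio of 1.12, and the whole Dcn gate had 539 and 647 CPM, a ratio of 1.20 (1.12 to 1.29). Its cells of low Cdkn2a went the other way, with 1052 CPM (982 to 1126) and 763 CPM (714 to 814), a ratio of 0.73 (0.66 to 0.80). The small classes, which were not compared, had 252 and 78.6 CPM in neutrophils, from 53 and 2 UMIs, and 101 and 10.4 CPM in endothelial cells, from 28 and 1 UMIs. With so few UMIs in the UBD library, no direction is read from them.

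Timp3, an inhibitor held in the extracellular matrix, also blocks ADAM proteases. It was 467 CPM (390 to 555) and 384 CPM (270 to 529) in endothelial cells, with overlapping intervals, 316 and 299 CPM in the whole Dcn gate, and 515 and 487 CPM in its cells of low Cdkn2a. Tumour cells had 89.3 CPM (87.4 to 91.3) and 61.7 CPM (60.3 to 63.0), a ratio of 0.69 (0.67 to 0.71). In tumour cells the inhibitors thus took separate courses, with Timp2 higher and Timp3 lower in the UBD library. Timp1 was slightly lower (log2 ratio -0.16), but its direction depended on the processing, from -0.31 to 0.20 under the alternatives. In macrophages (7.82 and 2.57 CPM) and osteoclast-like cells (5.81 and 3.39 CPM) Timp3 was at or below the T cell level.

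**Figure D4:**
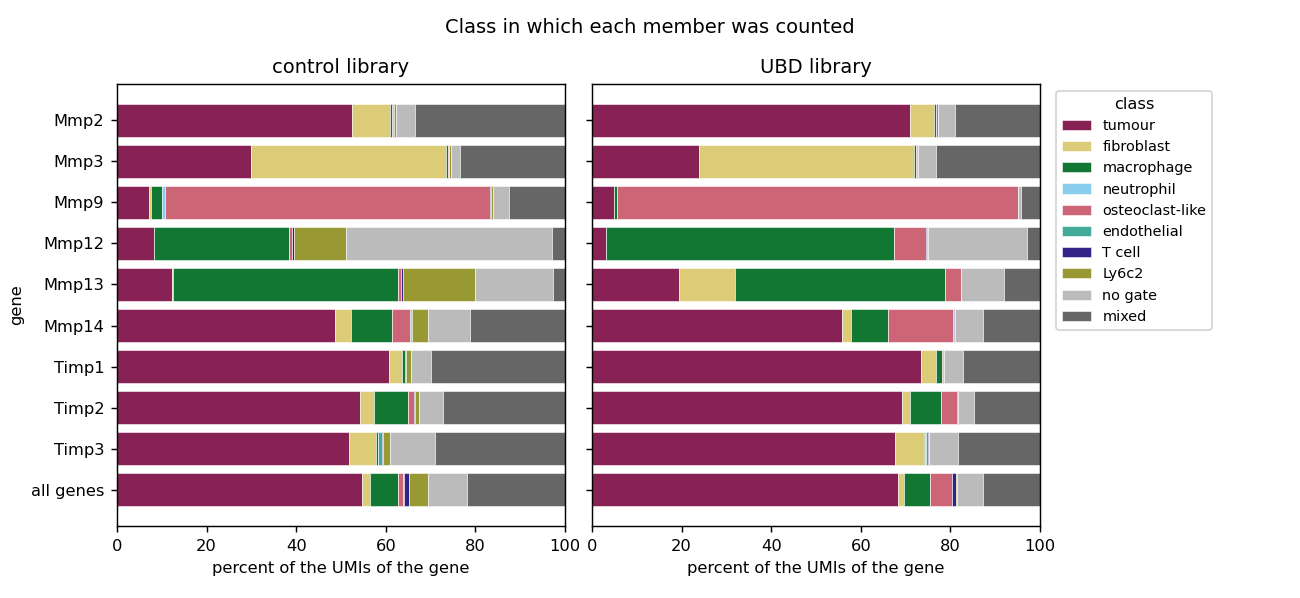
Stacked bars of the percent of each member's UMIs found in each class, with all genes as the last bar, in the control (left) and UBD (right) library; Mmp10 is left out. Osteoclast-like cells take 72.7% and 89.4% of Mmp9, and macrophages take 30.2% and 64.4% of Mmp12. Tumour cells take 54.7% and 68.3% of all genes. Their shares of Mmp2, Timp2 and Timp3 are near these, and of Timp1 they take 60.8% and 73.4%.

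Summed over the members, tumour cells carried 174 and 229 CPM of metalloproteinase against 1032 and 1157 CPM of TIMP transcripts, 5.93 and 5.05 TIMP UMIs per metalloproteinase UMI. The 3' tag gives 1 UMI per captured transcript and has no length term, but capture can differ between genes. Osteoclast-like cells were the reverse, with 0.0874 and 0.0676 TIMP UMIs per metalloproteinase UMI, and Mmp9 made up most of their sum. Macrophages had 2.28 and 2.71, and Dcn gate cells of low Cdkn2a 1.45 and 1.99. That ratio was higher in the UBD library in the last 2 and lower in the first 2.

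A member was counted as different between the libraries at 1.5-fold or more with at least 20 UMIs over both. In tumour cells 9 of the 10 members had the UMIs, and 2 were higher (Mmp9 and Timp2) and 2 lower (Mmp12 and Mmp13), beside 9.19% of 14889 genes higher and 21.3% lower (30.5% either way). In macrophages 3 of 8 were higher (Mmp12, Timp1 and Timp2) and 2 lower (Mmp13 and Timp3), beside 11.0% and 20.6% of 11403 genes (31.6% either way). Mmp9 and Mmp14, with log2 ratios of 0.58 and 0.55, joined those higher, 5 of 8, with doublets kept, with equal cell weights, with ratios centred on the median gene, or without mitochondrial, ribosomal protein, Gm42418 and Lars2 UMIs. In osteoclast-like cells 2 of 7 were higher (Mmp2 and Mmp12) and 1 lower (Timp3), beside 11.0% and 14.2% of 10001 genes (25.3% either way). In the Dcn gate 4 of 8 were higher (Mmp3, Mmp9, Mmp13 and Timp1) and 0 lower, beside 11.3% and 12.9% of 10165 genes (24.2% either way). Limited to cells of low Cdkn2a, 2 of 8 were higher (Mmp9, from 1 and 21 UMIs, and Mmp13) and 2 lower (Mmp2 and Mmp14), beside 12.2% and 15.6% of 7698 genes (27.8% either way). The median log2 ratio of the members was -0.16 in tumour cells, 0.57 in macrophages, 0.16 in osteoclast-like cells and 0.44 in the Dcn gate, beside -0.05, -0.09, -0.02 and 0.00 over all genes. Of the 16 differences in the 4 classes, 7 had a level clear of the T cell interval in both libraries. These were Timp2 in tumour cells, Mmp12, Mmp13, Timp1 and Timp2 in macrophages, and Mmp3 and Timp1 in the Dcn gate.

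**Figure D5:**
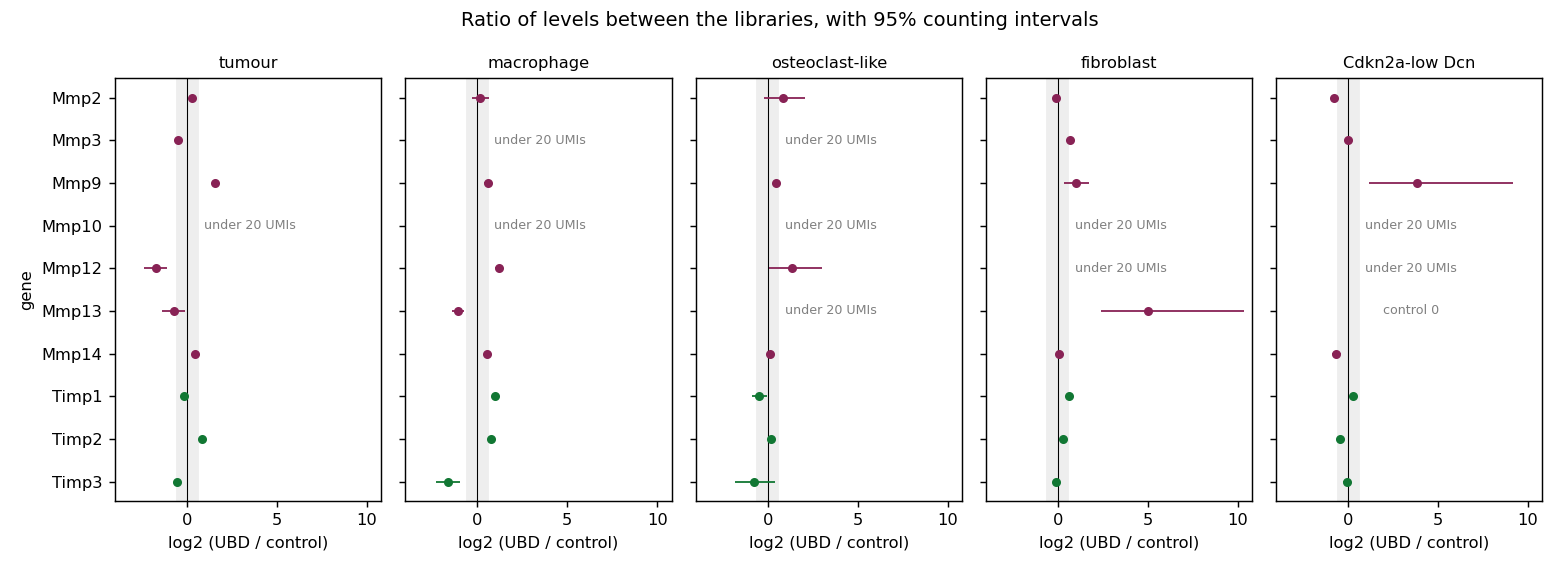
Log2 ratio of UBD over control for each member, with 95% counting intervals, in 4 classes and in Dcn gate cells of low Cdkn2a; metalloproteinases are purple, TIMPs green, and the grey band marks less than 1.5-fold. Timp2 is at 0.82 in tumour cells and 0.79 in macrophages, Mmp12 is at -1.74 and 1.18 there, and Mmp9 in cells of low Cdkn2a rests on 1 control UMI.

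Of 14 ADAM and ADAMTS genes, 4 of 13 measured were higher and 5 lower in tumour cells, and 1 of 8 was higher and 2 lower in macrophages. The all-gene shares in the same direction were 9.19% and 21.3% in tumour cells and 11.0% and 20.6% in macrophages, so the macrophage counts are near the background. Adam10, a sheddase, was higher in both, at 32.5 and 53.4 CPM in tumour cells (1.64-fold, 1.57 to 1.72) and 39.2 and 80.5 CPM in macrophages (2.05-fold, 1.82 to 2.32). In tumour cells Tgfb1, a growth factor that induces matrix genes, was 44.4 and 77.6 CPM, and Plat, a plasminogen activator, 180 and 116 CPM. In osteoclast-like cells Tgfb1 went the other way, at 76.6 and 30.7 CPM.

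The AP-1 and ETS factors are known regulators of metalloproteinase genes. Of 12 such genes 0 were higher and 5 lower in tumour cells, 0 and 6 in macrophages, and 0 and 5 in the Dcn gate, with a median log2 ratio of -0.33, -0.59 and -0.34. Over all genes the medians were -0.05, -0.09 and 0.00, and the shares higher and lower were 9.19% and 21.3%, 11.0% and 20.6%, and 11.3% and 12.9%. Within Dcn gate cells of low Cdkn2a, 2 of the 12 were higher (Etv4, from 8 and 19 UMIs, and Runx2, from 14 and 38, with intervals that include a ratio of 1) and 5 lower. Fosl1 was 115 and 58.1 CPM, Junb 1700 and 880 CPM and Fosb 639 and 350 CPM in tumour cells. In macrophages Jun was 915 and 402 CPM, Fos 1841 and 1116 CPM, Ets2 290.0 and 176 CPM, Fosl2 168 and 103 CPM and Junb 1820 and 1194 CPM. Osteoclast-like cells differed, with Fos at 582 and 1210 CPM and 2 of 12 factors higher and 1 lower. Of 17 other metalloproteinase and TIMP genes, 16 were in the files and few were measured. In the Dcn gate Mmp19 was 22.8 and 53.9 CPM and Mmp23 was 54.7 and 86.8 CPM. In its cells of low Cdkn2a neither passed 1.5-fold, with Mmp19 at 56.5 and 82.1 CPM and Mmp23 at 177 and 168 CPM.

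Genes whose levels followed a member over the 12 sums of 6 classes in 2 libraries were found by Pearson r of log2(CPM + 1), as a description, since the 2 sums of a class are alike and small classes weigh as much as large ones. Mmp9 was followed by Atp6v0e and Atp6v1g1, subunits of the proton pump, and by Jdp2 (r of 0.94, 0.92 and 0.93). Mmp2 was followed by the collagen gene Col5a1 (0.99), Gfpt2 and Plod2 (both 0.97), and Mmp3 by Ogn, C1s1 and Cpxm1 (1.00, 0.99 and 0.99). Mmp12 was followed by Fcrls, Gltp and Retnla (0.92, 0.91 and 0.90), Mmp13 by Tmem171, Nr1h3 and Ccl7 (0.86, 0.84 and 0.82), and Mmp14 by Yif1a, Yif1b and Mff (0.99, 0.98 and 0.98). Timp1 was followed by Atf5, Lima1 and Nfix (0.98, 0.97 and 0.96), Timp2 by Nupr1, Vegfa and Cryzl1 (0.93, 0.91 and 0.90), and Timp3 by Cavin1, Hspg2 and Plpp3 (0.99, 0.98 and 0.98). From cell to cell, r was taken between members within a class. In tumour cells thinned to 5000 UMIs (3097 and 6268 cells) the r between 2 members was from -0.05 to 0.18 in the control and from -0.02 to 0.15 in the UBD library, and in osteoclast-like cells Mmp9 and Mmp14 had an r of 0.17 and 0.26 over 83 and 697 cells. Mmp9 and Timp1 had an r of -0.39 in the 83 control cells, of which 3.61% had a Timp1 UMI.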

How the data were processed

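The deposited values are UMI counts per gene and barcode, in 1 sparse matrix per library with 31053 genes. The submitters' processing notes name Cell Ranger, STAR and mm10, and software version 3.1.0 wrote the matrices, per the file headers. The sources used here do not give the annotation or how cells were called. Of the gene IDs 30934 matched GENCODE vM21 (GRCm38), which gave the coordinates.

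Barcodes needed at least 200 genes, 500 UMIs and at most 20% mitochondrial UMIs. Of 14890 control and 14158 UBD barcodes (173973178 and 204267192 UMIs) 14353 and 13619 passed. Scrublet in scanpy 1.11.5 (expected rate 0.1, seed 0) marked 530 (3.69%) and 562 (4.13%) as doublets, and 13823 and 13057 cells were kept; 60 of their barcodes occur in both libraries.

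Gates needed at least 3 UMIs and 5 per 10000 of Cdkn2a, Dcn or C1qa, 10 UMIs and 50 per 10000 of S100a8, 2 UMIs and 2 per 10000 of Acp5 and of Ctsk, or 2 UMIs and 1 per 10000 of Cdh5. T cells passed no gate and had at least 2 UMIs of Cd3d, Cd3e and Cd3g together. Near the limits, 1256 of 3981 control and 1100 of 6494 UBD tumour cells lay below doubled limits, as did 398 of 2197 and 135 of 1781 macrophages, 92 of 194 and 83 of 219 Dcn gate cells, and 28 of 130 and 32 of 724 osteoclast-like cells. UMIs were summed per class and scaled to CPM, with 95% intervals from exact Poisson (levels), conditional binomial (ratios) and Clopper-Pearson (shares) limits, which cover counting error only. Classes with at least 50 cells in both libraries were compared. Where a count is 0 the limit is 3 counts. No test was possible with 1 library per group. Protein sequences were not used here, and 1 gene of the lists is not reported here. The ratio step was tested on simulated class sums with Poisson counts, which leave out the gathering of UMIs in few cells. Members, lists and markers were chosen with earlier results of these data known. Named from the lists were genes at 50 CPM or more and past 1.5-fold, at most 5 per direction and class; for each member the 3 genes of highest r were named, except for Mmp10, which was too low. Alternatives covered gates, cell filters, doublets, weights, centring, gene exclusions, thinning and limits.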

Additional observations from a re-analysis of the deposited data

Results flagged for a closer look

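Mmp12 differed in direction between classes, with a log2 ratio of UBD over control of -1.74 in tumour cells (72 and 31 UMIs), 1.18 in macrophages (266 and 644 UMIs) and 1.37 in osteoclast-like cells (5 and 71 UMIs). The tumour levels of Mmp12, 0.80 and 0.24 CPM, were at or below those of T cells, 1.42 and 1.19 CPM. Mmp13 also differed in direction, with -0.75 in tumour cells (50 and 43 UMIs), -1.07 in macrophages (205 and 104 UMIs) and 5.00 in the Dcn gate (1 and 28 UMIs, the latter from 2 cells). The difference between classes was not tested for either gene, since each group has 1 library.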

How the results depend on the processing

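Of 32 ratios of members, 16 were past 1.5-fold, and 12 of these kept their direction under every alternative that gave them a value. The number of such alternatives varied. Mmp13 in the Dcn gate had 6, against 11 for Mmp3 there, and Mmp12 in osteoclast-like cells had 9, against 10 for Mmp9. Of 347 alternative values, 229 stayed within the counting interval or near the count, 109 moved and 9 reversed. The last 5 alternatives (the first being cells with both Cdkn2a and Dcn counted as tumour) were chosen after seeing the data.

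For Mmp2 in osteoclast-like cells (8 and 78 UMIs, main log2 ratio 0.83) the log2 ratio was -0.37 with strict gates, -0.53 with mixed cells kept in the host class, -0.78 with equal cell weights and -2.47 after thinning. For Mmp9 in the Dcn gate (1.04) it was -0.28, -0.26 and -0.44 with strict gates, equal weights and thinning. Timp1 in the Dcn gate (0.61) was -0.012 with mixed cells kept, and Mmp3 there (0.70) was -0.031 in cells of low Cdkn2a.

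Counts of members that differed by more than 1.5 times from the main ones were as follows, and the others differed by at most 1. Strict gates gave 1 lower in tumour cells, 1 higher and 2 lower in osteoclast-like cells and 2 higher in the Dcn gate. Lenient gates gave 1 higher and 2 lower in osteoclast-like cells, and mixed cells kept gave 1 higher there. Doublets kept gave 5 higher in macrophages and 0 lower in osteoclast-like cells. Equal weights gave 4 lower in tumour cells, 5 higher in macrophages, 3 lower in osteoclast-like cells and 2 higher in the Dcn gate. Centring on the median gene, and leaving out mitochondrial, ribosomal protein, Gm42418 and Lars2 UMIs, each gave 5 higher in macrophages. Thinning, which left 4 members with the UMIs in osteoclast-like cells and 6 in the Dcn gate, gave 1 higher in each, and 4 higher and 3 lower in macrophages. A 2-fold limit gave 1 higher and 1 lower in tumour cells, 1 higher in macrophages, 1 higher and 0 lower in osteoclast-like cells and 2 higher in the Dcn gate. A minimum of 1 UMI gave 3 lower in osteoclast-like cells and 1 lower in the Dcn gate. Dcn gate cells of low Cdkn2a gave 2 higher and 2 lower, and tumour cells without an Acp5 or Ctsk UMI gave 4 lower. The cause of these changes was not tested.

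No paired analysis was possible because each group has 1 library. Depth limits Mmp10 everywhere and every member in neutrophils and endothelial cells of the UBD library.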

Other observations

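Cells with at least 2 UMIs of Ly6c2, a monocyte marker, that passed no gate and were not T cells (2006 control and 131 UBD cells) belong to no comparison above. They had 35.0 CPM of Timp3 in the control, from 237 UMIs, and 0 UMIs in the UBD library, where a count of 0 allows up to 7.18 CPM, at least 4.87-fold lower. Of those 237 UMIs, 139 were in 1 cell, and without it the control level was 14.5 CPM, near that of control T cells. The 4.87-fold limit therefore rests on that cell. Their Mmp12 was 15.1 and 4.79 CPM, from 102 and 2 UMIs, and their Mmp14 was 66.3 and 26.3 CPM. Of the 22 Mmp10 UMIs in the UBD library 19 were in mixed cells.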
